A study of Mus musculus with 48 samples.

Results

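The potassium channel genes described here are the mouse genes whose symbols begin with Kcn, followed by family letters and a number. They encode pore-forming and auxiliary subunits of potassium channels. Of 93 genes with such a symbol in the RNA count tables, after 5 antisense or overlapping transcripts were left out, 74 had a mean of at least 1 CPM (counts scaled to a common library total) in Control neuron RNA or in Control whole CA RNA. The 2 tables together held 48869 gene IDs. The minimum was met in both Control groups by 69 members and in whole CA RNA alone by 5 (Kcne1l, Kcne4, Kcnj16, Kcnj8 and Kcnmb1). The 19 genes under the minimum were Kcna7, Kcna10, Kcne1, Kcne2, Kcne3, Kcnj1, Kcnj5, Kcnj13, Kcnj14, Kcnj15, Kcnk5, Kcnk7, Kcnk15, Kcnk16, Kcnk18, Kcnmb3, Kcnn4, Kcnq1 and Kcnv2. Kcnq1, just outside, had 0.998 CPM in Control neuron RNA, and Kcne4, just inside, had 1.12 CPM in Control whole CA RNA.

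The study compared Setd1b cKO mice with Control mice, all C57BL/6J and 4 to 6 months old. Setd1b encodes an enzyme that methylates lysine 4 of histone H3, and cKO stands for conditional knockout. The driver of the deletion and the alleles of the Control mice are not given in the sources used here. RNA of neurons of the hippocampal CA region was sequenced in 3 libraries labelled cKO and 3 labelled Control, and RNA of the whole CA region in 6 of each. ChIP-seq of sorted neuronal nuclei gave peak lists of 4 cKO and 4 Control libraries for both H3K4me3 and H3K4me1, of 4 and 3 for H3K27ac, and of 3 and 4 for H3K9ac. The labels do not say whether replicates came from separate animals, so every p-value measures the spread between these libraries only.

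Potassium channels let potassium leave the cell, which repolarises the membrane after an action potential, sets the resting potential and limits repetitive firing. Voltage-gated channels are assembled from pore subunits of the Kcna, Kcnb, Kcnc, Kcnd, Kcnh and Kcnq families, and the Kcnf, Kcng, Kcns and Kcnv subunits form no channel alone but change the gating of Kcnb channels when they join them. Kcnj genes encode inward rectifiers, Kcnk genes two-pore leak channels, and Kcnma, Kcnn and Kcnt genes channels opened by calcium or sodium, while Kcnab, Kcnip, Kcne and Kcnmb products are auxiliary subunits. H3K4me3 is a histone mark of active gene starts, H3K4me1 marks enhancers and the flanks of starts, and H3K27ac and H3K9ac mark active regulatory regions.

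Neuron RNA libraries held 55.7 to 69.1 M counts and whole CA libraries 14.9 to 20.1 M. Setd1b was not lower in libraries labelled cKO. In neuron RNA it had 59.9, 62.6 and 72.1 CPM in libraries labelled cKO and 65.4, 49.7 and 47.6 CPM in those labelled Control (log2 fold change 0.25 ± 0.13 SE, adjusted p = 0.361 in edgeR). In whole CA RNA its log2 fold change was 0.59 (edgeR adjusted p = 0.00415, 0.0994 with replicates 1 to 3 alone). A count over the whole gene does not measure a deleted exon, so the genotype labels could not be checked and the groups are called by their labels. Markers of neurons were present in both materials. The 8 neuron markers summed to 6277 to 6427 CPM in Control neuron RNA and 13611 to 14420 CPM in Control whole CA RNA. A lower share in neuron RNA thus does not by itself place a gene outside neurons. Of these markers, Neurod6 had 134 to 176 CPM in Control and 31.1 to 34.0 CPM in cKO neuron libraries, while the others overlapped. Mitochondrial genes took 0.00814 to 0.0144% of neuron and 3.41 to 7.05% of whole CA counts. Endothelial markers were under 1 CPM in every neuron library, 4 of 4. The summed CPM of 5 dentate granule cell markers was 209 to 247 in Control and 145 to 187 in cKO neuron libraries. Its members differed, since Prox1 had 71.4 to 78.7 and 66.2 to 82.6 CPM, while C1ql2, Dsp, Lct and Plk5 were lower in every cKO neuron library than in every Control one. The sum of 5 meningeal fibroblast markers was 45.7 to 57.0 and 13.6 to 16.2 in the same groups, of which Dcn alone made up 39.0 to 47.5 and 9.76 to 12.7 CPM. Col1a1, Col1a2 and Lum overlapped between the genotypes there, while Ogn had 3.40 to 5.60 CPM in Control and 0.315 to 0.556 CPM in cKO libraries. For 4 choroid plexus markers the sum was 36.1 to 41.8 and 20.9 to 21.9, with Ttr and Folr1 under 1 CPM in every neuron library. Kl was lower in every cKO neuron library than in every Control one, while Prlr overlapped. In whole CA RNA the median sums of the 3 lists were lower in the libraries labelled cKO as well. The dentate sums overlapped, at 33.5 to 87.1 against 78.4 to 116 CPM. The fibroblast sums were 21.9 to 27.01 against 58.1 to 96.1 CPM (Dcn 10.9 to 16.2 against 44.9 to 81.6 CPM). Col1a1, Col1a2, Lum and Ogn overlapped between the genotypes in whole CA RNA. The choroid plexus sums were 19.97 to 23.6 against 34.0 to 41.9 CPM. Of that list, Kl had 10.8 to 14.9 against 22.9 to 30.5 CPM and Prlr 2.05 to 3.84 against 3.88 to 5.46 CPM. Ttr and Folr1 overlapped between the genotypes there. Whether choroid plexus content differed was not tested. The part of the 3 lists in the genotype differences given below was not tested either. In bulk RNA, fewer cells of a type and less RNA per cell cannot be told apart.

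Most of the channel genes were detected in both materials. Between Control neuron and Control whole CA libraries, 58 of 74 members were called by edgeR at an adjusted p under 0.05, 32 higher and 26 lower in neuron RNA, against 83.6% of all 16859 genes tested (43.6% higher and 40.1% lower). Of the 27 voltage-gated pore genes, 15 were higher and 5 lower in neuron RNA. Of the 12 auxiliary genes, 1 was higher and 9 were lower. Among the 69 members that met the minimum in both Control groups, 32 were higher and 21 lower, and of the 9 auxiliary genes among them 1 was higher and 6 were lower. The material, the library set and the sequencing run cannot be told apart in this comparison, and the members were chosen by their levels in the same libraries.

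Kcnj10 encodes the main inward rectifier of astrocytes. It had 2.56, 2.80 and 2.06 CPM in the Control neuron libraries and a lowest, median and highest value of 262, 284.8 and 325 CPM in Control whole CA RNA, a log2 ratio of -7.05 ± 0.13 (SE, adjusted p = 3.71e-16 in edgeR). Its glial partner Kcnj16 had 0.380, 0.531 and 0.507 CPM against 29.5 to 42.0 CPM, a log2 ratio of -6.37. Kcnj8, the pore of vascular ATP-sensitive channels, had 0.0495, 0.0966 and 0.0145 CPM in Control neuron RNA and 3.04 to 5.07 CPM in whole CA RNA, and Kcnmb1, a calcium-activated channel subunit of smooth muscle, had at most 0.0330 CPM in neuron RNA and 1.29 to 2.56 CPM in whole CA RNA. The libraries of the 2 materials did not overlap for these genes, and Kcnj16, Kcnj8 and Kcnmb1 are members only through their whole CA level, so their direction follows from the choice of members.

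At the other end, Kcnh4, a voltage-gated pore gene, was higher in Control neuron RNA by a log2 ratio of 2.68 ± 0.16 (SE, adjusted p = 1.46e-10 in edgeR), with 12.01, 10.01 and 8.69 CPM in the neuron libraries. The two-pore gene Kcnk12 followed with a log2 ratio of 2.06, Kcnt1, a sodium-activated channel, with 1.88, Kcnn2, the SK2 channel of the afterhyperpolarisation, with 1.57, and Kcnj11, a neuronal ATP-sensitive channel pore, with 1.57. Among the members, those with the largest share of Control neuron reads in their family included Kcna2, Kcnab2, Kcnc2, Kcnd3, Kcnf1, Kcng1, Kcnh7, Kcnip2, Kcnj9, Kcnk1, Kcnma1, Kcnmb2, Kcnn2, Kcns2, Kcnt1, Kcnu1 and Kcnv1. CPM is not corrected for transcript length, so a larger share of reads is not a higher level.

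**Figure D1:**
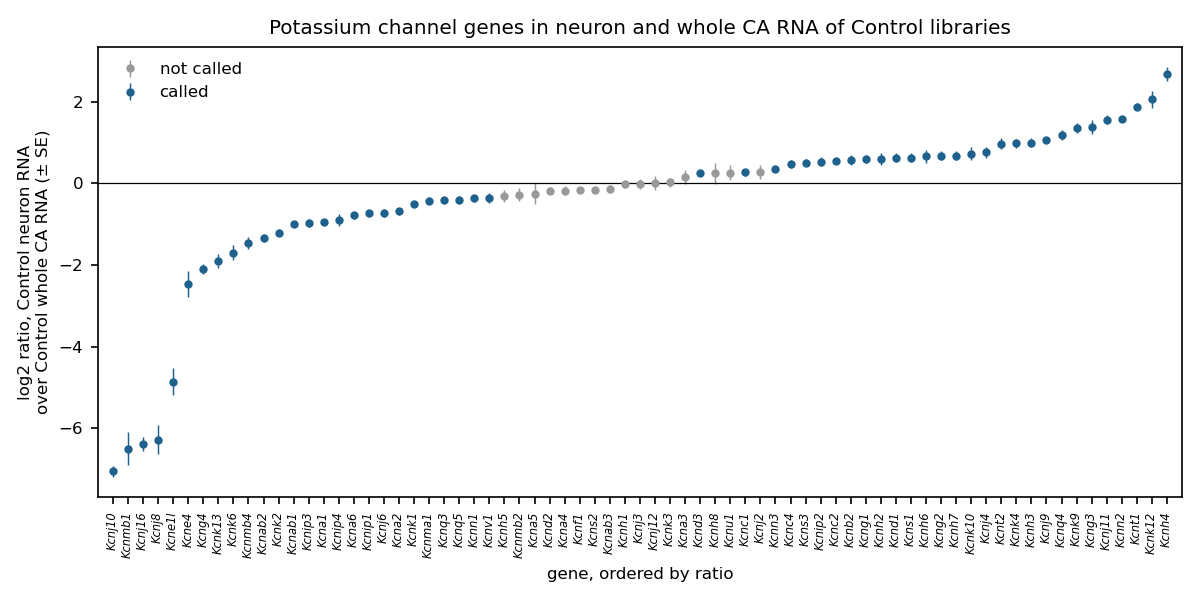
Log2 ratio of Control neuron RNA (n = 3) over Control whole CA RNA (n = 6) for the potassium channel genes named on the axis, ordered by ratio, with SE bars, and called genes (edgeR adjusted p under 0.05) in blue. Kcnj10 at -7.05 and Kcnh4 at 2.68 are the ends of the order, and the ratios of Kcnmb1 and Kcnj8 rest on a few reads per neuron library.

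In neuron RNA, Kcnn3 was the only potassium channel gene called between the genotypes, and it was lower in the libraries labelled cKO. Kcnn3 (ENSMUSG00000000794, chromosome 3, 89520164 to 89672494, GRCm38.p6) encodes SK3, a small-conductance calcium-activated channel that contributes to the afterhyperpolarisation. It had 37.2, 34.9 and 37.6 CPM in the Control libraries and 22.3, 22.9 and 24.8 CPM in the libraries labelled cKO, without overlap. Its log2 fold change was -0.66 ± 0.085 (SE, adjusted p = 0.00309 in edgeR), and the call held in all 13 alternatives run. Of 71 members tested, 1 was called, against 2.75% of all 19622 genes (2% lower and 0.744% higher). Kcne1l, Kcnj8 and Kcnmb1 had too few counts to be tested.

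Differences of other channel genes in neuron RNA did not pass the adjusted threshold. At an unadjusted p under 0.05 there were 21 members, 17 with a negative and 4 with a positive log2 fold change, against 17.2% of all genes. Negative values were seen for 44 of the 71 tested members, against 46.5% of all genes, and the median log2 fold change was -0.08 for the members and 0.02 for all genes. DESeq2 called 6 members, all with negative values, adding Kcng2, Kcnh5, Kcnip2, Kcnk2 and Kcnv1 to Kcnn3. It also called more of all 19622 genes, 840 against 539 with edgeR.

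The silent modifier subunits had the lowest median of the role groups in neuron RNA, -0.34 over 9 tested genes. Of these, 8 were negative and 0 called, against 46.5% and 2.75% of all genes. This grouping by role was made with the values known. Kcng4 had 3.06, 2.54 and 2.505 CPM in Control and 1.52, 2.19 and 1.94 CPM in cKO libraries, and its log2 fold change of -0.53 was not called (edgeR adjusted p = 0.145). Kcng2 had a log2 fold change of -0.44, Kcns2 of -0.43 and Kcns1 of -0.34, and none was called (edgeR adjusted p = 0.109, 0.157 and 0.162). In all 3 genes every library labelled cKO lay below every Control library. They are named for an unadjusted p under 0.05, so this order follows in part from that choice. Its share over all genes was not counted. Kcnv1 had 41.6, 68.7 and 56.8 CPM in Control and 40.4, 43.2 and 33.9 CPM in cKO libraries, a log2 fold change of -0.52 (edgeR adjusted p = 0.158), and the groups overlapped. Without Control replicate 1, Kcnv1 and the inward rectifier gene Kcnj2 were called too, with edgeR adjusted p = 0.0144 and 0.00796.

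Among the voltage-gated pore genes, 27 were tested in neuron RNA and 0 were called by edgeR, against 2.75% of all genes. Kcnh5, a pore subunit of the ether-a-go-go family, had 6.29, 7.12 and 4.76 CPM in Control and 3.65, 4.58 and 3.98 CPM in cKO libraries. These groups did not overlap, and its log2 fold change of -0.59 had an edgeR adjusted p of 0.09997. Kcnh2, which encodes the related ERG1 subunit, had a log2 fold change of -0.25, and Kcnd3, which encodes the A-type channel Kv4.3, had 0.21 (edgeR adjusted p = 0.249 and 0.255). Reads of Kcnd3 and its antisense partner Kcnd3os cannot be told apart where they overlap, since the strand setting of the counting is not given in the sources used here. The same holds for Kcnab3 and Kcnmb4, which also have antisense partners.

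For the remaining groups in neuron RNA, the values that reached an unadjusted p under 0.05 were small. Among auxiliary genes, Kcnip2, whose product binds Kv4 channels, had a log2 fold change of -0.34, Kcnab1 of -0.29 and Kcnab3 of -0.24. Among two-pore genes, Kcnk2, the mechanosensitive channel TREK-1, had -0.39 and Kcnk12 -0.35. Among inward rectifiers, Kcnj2 had -0.45, Kcnj11 -0.26 and Kcnj9 0.26. The calcium-activated Kcnn1 and Kcnn2 had -0.22 and -0.24, Kcnma1, the pore of the large-conductance BK channel, had 0.26, and Kcnu1, known from sperm, had 0.35. The edgeR adjusted p of these genes lay above 0.1.

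In whole CA RNA, 8 channel genes were called and 7 of them were lower in the libraries labelled cKO. They were Kcnv1, Kcnn3, Kcnab1, Kcnq3, Kcns2, Kcnh5 and Kcng4, while Kcnj9 was higher. All 74 members were tested, so 10.8% were called, against 4.17% of all 15362 genes (2.79% lower and 1.38% higher). At an unadjusted p under 0.05 there were 19 members, 11 negative and 8 positive, against 15.7% of all genes, and 49 members had a negative value, against 50.8% of all genes. The median log2 fold change was -0.06 for the members and 0.00 for all genes.

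Of the 9 silent modifier genes, 3 were called lower in whole CA RNA and 9 had a negative value, against 2.79% and 50.8% of all genes. Their median log2 fold change was -0.26, and the role groups were made with the values known. Kcnv1 (ENSMUSG00000022342, chromosome 15, 45096086 to 45115912) had a lowest, median and highest value of 53.5, 63.9 and 69.9 CPM in Control and 35.7, 42.8 and 47.9 CPM in libraries labelled cKO. The groups did not overlap, and the log2 fold change was -0.61 ± 0.089 (SE, adjusted p = 0.000267 in edgeR), the largest in size among the members. The call of Kcnv1 held in all 21 alternatives run. Kcns2 (ENSMUSG00000050963, chromosome 15, 34837355 to 34843407) had 32.6, 35.0 and 41.3 CPM in Control and 26.03, 29.4 and 32.7 CPM in cKO libraries, whose ranges overlapped slightly, with a log2 fold change of -0.31 ± 0.074 (SE, adjusted p = 0.0217 in edgeR). Kcng4 (ENSMUSG00000045246, chromosome 8, 119623854 to 119635680) had 9.20, 10.5 and 10.9 CPM in Control and 6.31, 6.89 and 10.2 CPM in cKO libraries, which overlapped. Its log2 fold change was -0.43 ± 0.11 (SE, adjusted p = 0.0384 in edgeR), and 10 of 12 single-library omissions ended the call, with all but those of cKO replicates 4 and 5 doing so.

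Kcnn3 fell in whole CA RNA too. Its lowest, median and highest values were 23.4, 25.1 and 28.1 CPM in Control and 16.7, 19.05 and 21.1 CPM in libraries labelled cKO, without overlap, a log2 fold change of -0.44 ± 0.077 (SE, adjusted p = 0.00164 in edgeR). Kcnab1 (ENSMUSG00000027827, chromosome 3, 64949212 to 65378225) encodes a beta subunit that speeds the inactivation of Kv1 channels. It had 166, 177 and 185 CPM in Control and 126, 140.5 and 161 CPM in cKO libraries, again without overlap, a log2 fold change of -0.34 ± 0.060 (SE, adjusted p = 0.00194 in edgeR).

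Of the 27 voltage-gated pore genes, 2 were called lower in whole CA RNA and 0 higher, against 2.79% and 1.38% of all genes. Kcnq3 (ENSMUSG00000056258, chromosome 15, 65986374 to 66286636), a subunit of M-current channels, had 296, 329 and 344 CPM in Control and 247, 274 and 295 CPM in cKO libraries, with no overlap. Its log2 fold change was -0.26 ± 0.057 (SE, adjusted p = 0.0102 in edgeR). Kcnh5 (ENSMUSG00000034402, chromosome 12, 74897217 to 75177332) had 5.24, 6.93 and 7.71 CPM in Control and 3.82, 5.15 and 5.60 CPM in cKO libraries, which overlapped, with a log2 fold change of -0.46 ± 0.12 (SE, adjusted p = 0.0350 in edgeR). For Kcnh5, 9 of 12 single-library omissions ended the call, all but those of cKO replicates 1 and 6 and Control replicate 1. The call of Kcns2 was lost without cKO replicate 1 or without Control replicate 3 or 5.

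Kcnj9 rose in whole CA RNA. It encodes GIRK3, a subunit of the G-protein-gated inward rectifiers through which inhibitory receptors act, and lies on chromosome 1 from 172320508 to 172329322 (ENSMUSG00000038026). It had 72.5, 83.5 and 88.9 CPM in Control and 98.0, 106 and 127 CPM in libraries labelled cKO, without overlap, a log2 fold change of 0.40 ± 0.065 (SE, adjusted p = 0.000753 in edgeR). The other GIRK genes tested had log2 fold changes of -0.09 (Kcnj3) and -0.08 (Kcnj6). Of the 10 inward rectifier genes, 8 had a negative value, against 50.8% of all genes. The astrocytic Kcnj10 and Kcnj16 had -0.17 and -0.23 (edgeR adjusted p = 0.148 and 0.290). Astrocyte marker CPM, summed over 6 genes, was 1483 to 1734 in Control and 1407 to 1533 in cKO whole CA libraries.

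Further members reached an unadjusted p under 0.05 in whole CA RNA without a call. Kcnt1 had a log2 fold change of 0.23 (edgeR adjusted p = 0.0519), Kcnd3 of 0.18 (0.0978), Kcnh6 of 0.39 (0.125), Kcnk9 of 0.26 (0.138), Kcnip1 of 0.17 (0.261) and Kcnj4 of 0.38 (0.311). Kcnt1 was called in 6 of 21 alternatives, with DESeq2 (adjusted p = 0.0176), a replicate block (edgeR adjusted p = 0.0189), RLE factors, lane as a term and without cKO replicate 3 or Control replicate 1. Kcnj4 was called with a replicate block (edgeR adjusted p = 0.0443) and with replicates 4 to 6 alone. Kcng1 had -0.26 and Kcnn2 had -0.13. Every library labelled cKO lay above every Control library for Kcnh6, at 2.60 to 3.42 against 1.91 to 2.59 CPM.

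Replicates 1 to 3 and 4 to 6 of whole CA RNA are on different sequencing lanes per the file names, with both genotypes on each. With replicates 1 to 3 alone, 2 members were called, Kcnv1 and Kcng4. With replicates 4 to 6 alone there were 5, Kcnv1, Kcnn3, Kcnab1, Kcnj9 and Kcnj4. Over all genes, 207 of 15421 were called with replicates 1 to 3 alone and 224 of 15562 with replicates 4 to 6 alone. The log2 fold change in the first and the second set was -0.58 and -0.64 for Kcnv1, -0.37 and -0.50 for Kcnn3, -0.30 and -0.38 for Kcnab1, -0.20 and -0.32 for Kcnq3, -0.31 and -0.30 for Kcns2, -0.42 and -0.50 for Kcnh5, and 0.32 and 0.47 for Kcnj9. It was -0.64 and -0.24 for Kcng4 and 0.12 and 0.58 for Kcnj4, which differed more between the sets, a difference that was not tested.

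**Figure D2:**
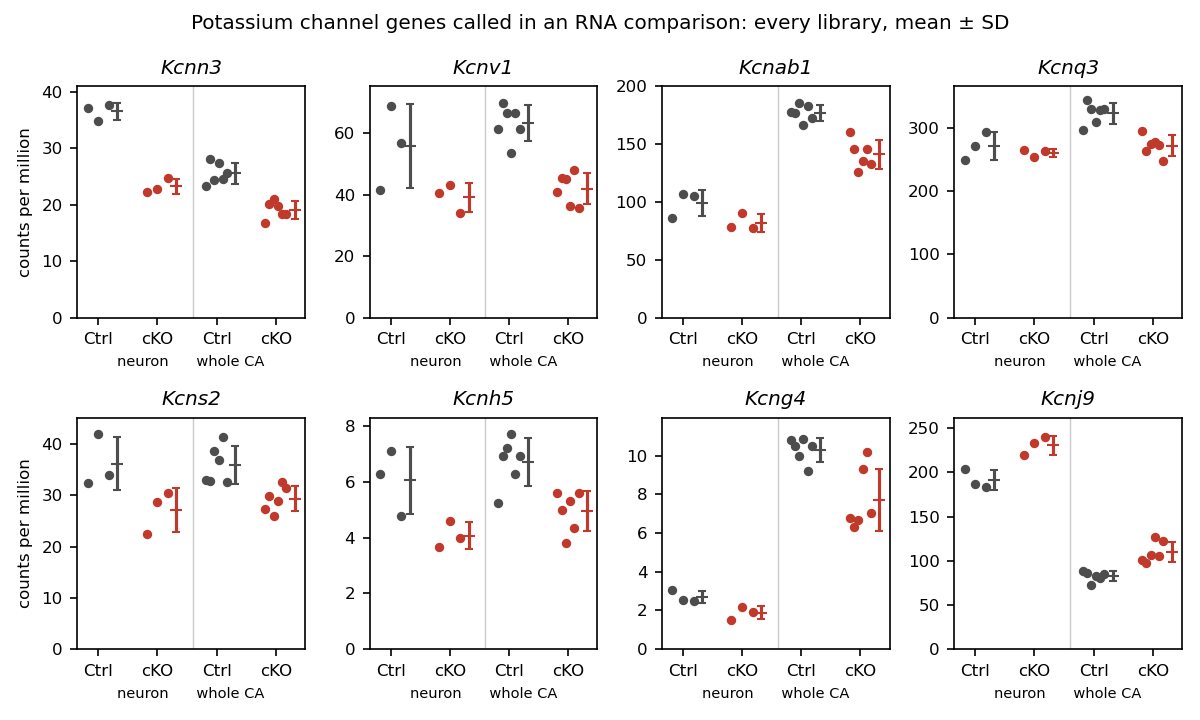
CPM of the 8 potassium channel genes called in an RNA comparison, with 1 point per library (3 and 3 neuron, 6 and 6 whole CA libraries) and the mean ± SD beside the points. Kcnn3 libraries labelled cKO lie below all Control libraries in both materials, and Kcnj9 libraries labelled cKO lie above.

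**Figure D3:**
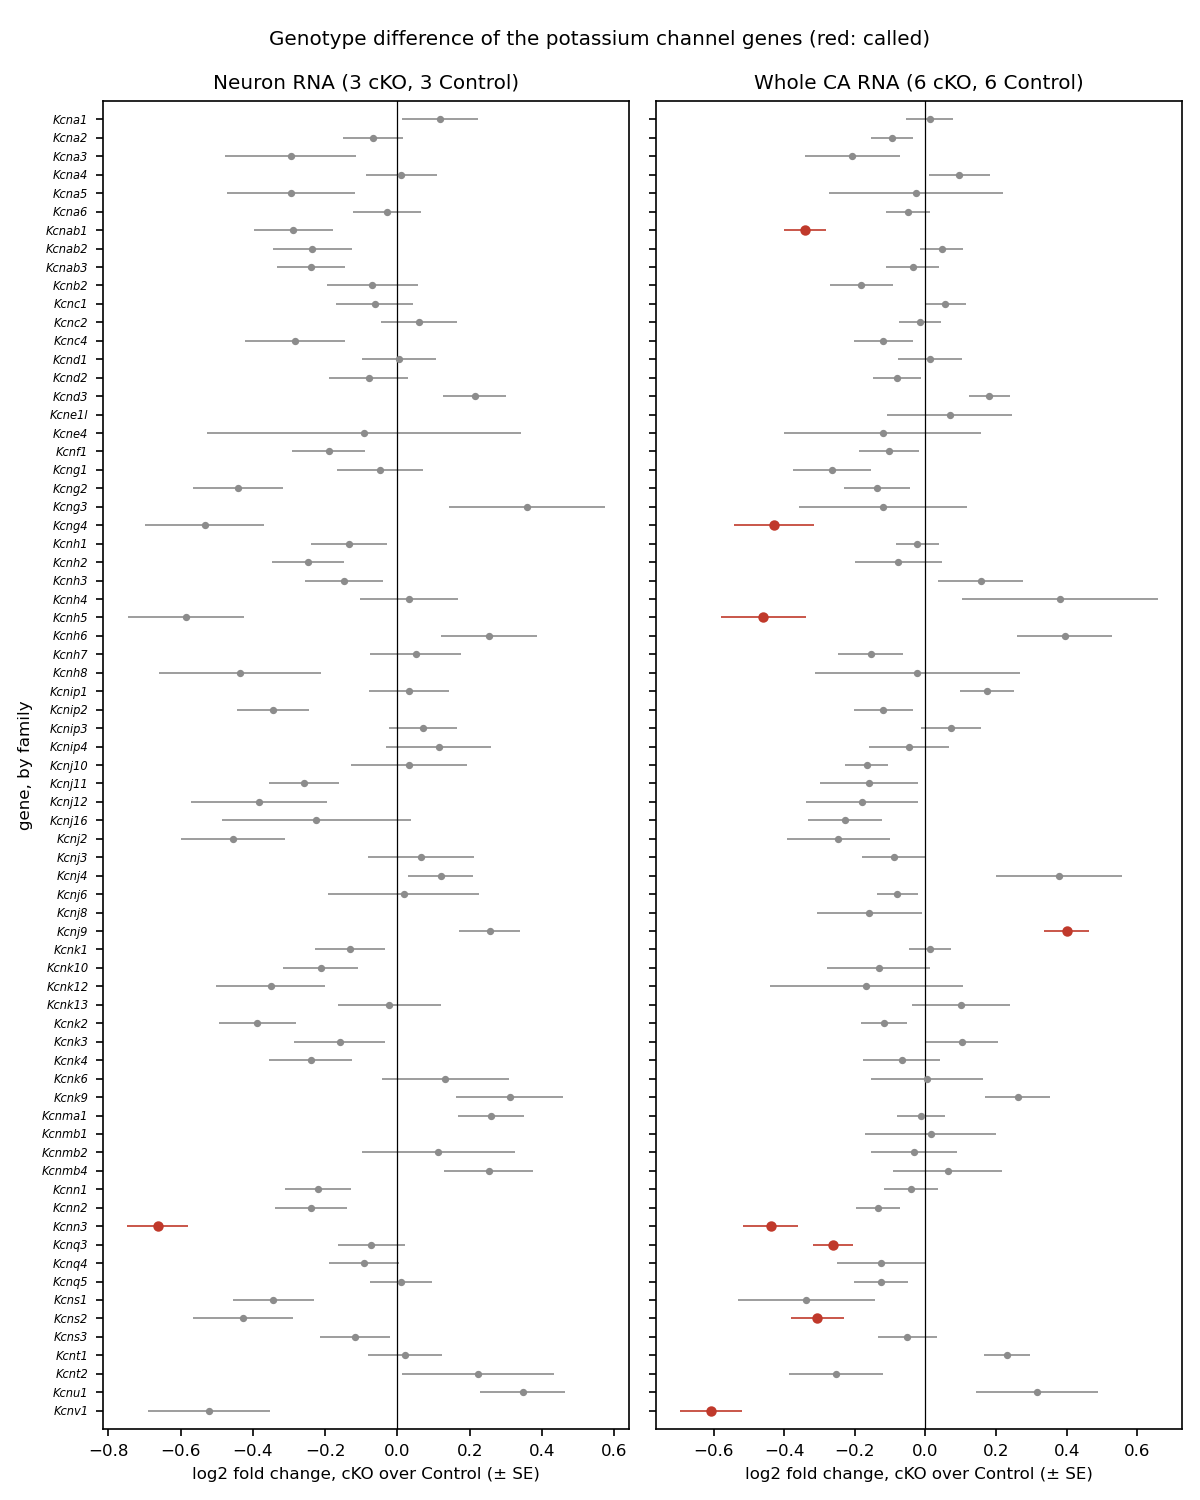
Log2 fold change ± SE, libraries labelled cKO over Control, in neuron RNA and whole CA RNA, of the potassium channel genes named on the axis, by family. Red points are called at an edgeR adjusted p under 0.05, 1 among neuron and 8 among whole CA values.

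Whether the genotype difference of a channel gene depended on the material was tested by the interaction in a fit of all 18 RNA libraries. Of 74 members, 0 were called by edgeR and 0 by DESeq2, against 0.16% of 17523 genes by edgeR. At an unadjusted p under 0.05 there were 3, Kcnab2, Kcnk2 and Kcnma1, against 8.11% of all genes. Kcnma1 had a log2 fold change of 0.26 in the neurons and of -0.01 in whole CA RNA, a difference of 0.28 ± 0.12 (SE, adjusted p = 0.579 in edgeR). Kcnq3, called in whole CA RNA alone, had -0.07 in neurons and -0.26 in whole CA RNA, a difference of 0.20 ± 0.10 (SE, adjusted p = 0.624 in edgeR). A difference between materials was thus not detected for any channel gene.

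The 26 partner genes on a list of proteins that bind or act beside potassium channels were read from the same fits. Of 25 tested, 2 were called lower in neurons and 1 in whole CA RNA, and 0 were called higher, where 2% and 2.79% of all genes were called lower. Lgi1, a secreted protein that regulates Kv1 channels and synapses, had 154, 181 and 169 CPM in Control and 64.4, 65.1 and 61.9 CPM in libraries labelled cKO in neuron RNA, without overlap. Its log2 fold change was -1.41 in both materials (edgeR adjusted p = 4.83e-05 in neurons and 1.40e-11 in whole CA RNA). Hcn3, a pacemaker channel gene, had a log2 fold change of -0.47 in neuron RNA (edgeR adjusted p = 0.0356), and 5 of 6 single-library omissions ended that call, all but that of Control replicate 2. The partner list had a median log2 fold change of -0.03 in neurons and of 0.02 in whole CA RNA.

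Within 5 kb of the start, the tracts of H3K4me3 of most channel genes tested were shorter in the libraries labelled cKO. For each gene the base pairs covered by H3K4me3 peaks from 5 kb before to 5 kb after its start were counted, using the listed start with the most covered length over all libraries where several were listed. Of the 74 members, 53 had a start in the RefSeq promoter table used here, and 49 of these had a peak in at least 3 libraries and were tested. Of those, 34 were called by limma at an adjusted p under 0.05, 33 shorter and 1 longer, against 28.8% of all 16148 windows tested (27.4% shorter and 1.44% longer). A negative log2 difference was seen in 42 of the 49, against 72.4% of windows, and the median log2 difference was -0.39 for the members and -0.09 for all windows. The peak lists hold lengths, so the height of the signal inside a peak is not measured. A single input library served each genotype, with 31.3 M tags for cKO and 28.8 M for Control, so an effect of the input on peak length cannot be told apart from the genotype. The H3K4me3 libraries held 24.4 to 27.8 M tags per the file headers.

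The stretches just upstream of the starts of 4 members are shown because their windows stand for the patterns described next, Kcnd2 and Kcnj2 for a large loss of covered length, and Kcnn3 and Kcnab1 for genes that were also called in RNA. Each is the 250 bases before the start used, from RefSeq on GRCm38.p6, on the plus strand and read 5′ to 3′. They lie at chr6:21215096-21215345 (Kcnd2), chr11:111065914-111066163 (Kcnj2), chr3:89519914-89520163 (Kcnn3) and chr3:65108764-65109013 (Kcnab1, a start inside the gene). Capitals mark matches on either strand to GGGCGG (GC box), TGACG (cAMP response element core), CCAAT (the NF-Y core), TATAAA (a core promoter element) or CACGTG (E-box).
Kcnd2: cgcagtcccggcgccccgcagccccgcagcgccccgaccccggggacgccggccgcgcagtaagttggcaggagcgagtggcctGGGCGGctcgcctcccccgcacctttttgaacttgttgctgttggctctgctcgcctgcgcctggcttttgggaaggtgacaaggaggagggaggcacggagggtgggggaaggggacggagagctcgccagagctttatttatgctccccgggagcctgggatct
Kcnj2: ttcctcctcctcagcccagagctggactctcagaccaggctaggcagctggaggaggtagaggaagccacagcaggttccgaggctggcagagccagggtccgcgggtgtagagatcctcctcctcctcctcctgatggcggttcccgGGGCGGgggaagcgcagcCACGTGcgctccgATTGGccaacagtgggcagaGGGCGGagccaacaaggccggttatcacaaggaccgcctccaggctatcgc
Kcnn3: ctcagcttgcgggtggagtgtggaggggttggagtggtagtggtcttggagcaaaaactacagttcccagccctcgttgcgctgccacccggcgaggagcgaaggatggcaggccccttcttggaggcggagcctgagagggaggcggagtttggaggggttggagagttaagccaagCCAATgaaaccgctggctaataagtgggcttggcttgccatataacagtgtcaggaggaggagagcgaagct
Kcnab1: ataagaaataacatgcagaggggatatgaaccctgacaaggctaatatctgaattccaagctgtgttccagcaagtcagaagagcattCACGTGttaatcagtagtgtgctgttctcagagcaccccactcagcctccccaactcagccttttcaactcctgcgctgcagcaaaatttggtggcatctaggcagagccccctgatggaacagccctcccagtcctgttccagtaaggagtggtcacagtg

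The printed Kcnd2 stretch holds 22 CG dinucleotides and 1 GC box, and that of Kcnj2 holds 14 CG dinucleotides, 2 GC boxes, 1 CCAAT and 1 E-box. That of Kcnn3 holds 10 CG dinucleotides and 1 CCAAT, and that of Kcnab1 holds 2 CG dinucleotides and 1 E-box. The median number of CG dinucleotides per 250 bases was 14 over the 53 member starts and 6 over all 32851 listed starts. A GC box was found in 26 of 53 member stretches (49.1%, all starts 32.7%), CCAAT in 24.5% (33.8%), the cAMP response element core in 20.8% (17.8%), the E-box in 7.55% (6.02%) and TATAAA in 1 member (1.89%, all starts 12.4%). Member starts are a single start per gene, that with the most H3K4me3 covered length, in genes chosen by their RNA level. The 32851 starts include every listed start of every gene. The 2 sets are thus not alike, and their differences cannot be read as a trait of channel genes. A match describes letters in this window and shows no binding.

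Kcnd2 had the smallest p among the members. It encodes Kv4.2, the main dendritic A-type channel of hippocampal pyramidal cells. Its H3K4me3 peaks covered 6725, 6484, 6654 and 6709 bp in the Control libraries and 2295, 2557, 2542 and 2330 bp in the libraries labelled cKO, with no overlap. The log2 difference was -1.42 ± 0.046 (SE, limma adjusted p = 8.35e-06). Within 2 kb of the start the covered length was 3710 ± 167 bp in Control and 2375 ± 122 bp in cKO libraries (SD, n = 4 each). Its RNA had 146, 188 and 164 CPM in Control and 164, 165 and 147 CPM in cKO neuron libraries, a log2 fold change of -0.08 ± 0.11 (SE, adjusted p = 0.744 in edgeR).

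Kcnj2, the Kir2.1 channel that holds the resting potential, had 5086, 5186, 5214 and 5260 bp in Control and 2462, 2775, 2548 and 2545 bp in cKO libraries, a log2 difference of -0.98 ± 0.044 (SE, limma adjusted p = 1.92e-05). Kcnab1 had 7584, 7025, 7385 and 7638 bp in Control and 3297, 3950, 3627 and 3490 bp in cKO libraries, a log2 difference of -1.03 ± 0.060 (SE, limma adjusted p = 4.89e-05). The 2 groups of libraries were far apart at both genes. At the most upstream of its 3 listed starts Kcnab1 had a log2 difference of 0.06 (limma adjusted p = 0.284), and its remaining listed start was not tested. For Kcnk2 the most upstream of 4 starts gave 1.35 (limma adjusted p = 0.0365), where the start with the most covered length gave -0.55 (limma adjusted p = 0.000250).

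Other called windows spanned all role groups. Shorter calls numbered 11 of 17 voltage-gated pore genes, 6 of 9 auxiliary genes, 5 of 6 two-pore genes, 5 of 8 inward rectifiers, 3 of 5 silent modifiers and 3 of 4 calcium- or sodium-activated genes, groups made with the values known, against 27.4% of all windows. Kcnh7, an ERG-family pore, had 4853, 4108, 4301 and 4209 bp in Control and 2084, 2193, 2278 and 2301 bp in cKO libraries (log2 difference -0.95). Kcnk4, the leak channel TRAAK, had a log2 difference of -0.96, Kcnf1 of -0.91, Kcnmb4, the neuronal BK subunit, of -0.81, Kcnc4 of -0.76 and Kcnab2 of -0.72. The windows of Kcnh7, Kcnmb4 and Kcnab2 also hold a listed start of another gene (Gm34110, Kcnmb4os2 and Nphp4), as do those of 14 members in all. The start regions of the glial and vascular Kcnj10 and Kcnj8 had short peaks in these neuronal nuclei, 947 ± 31.7 and 1660 ± 87.8 bp in Control libraries (SD, n = 4), with log2 differences of 0.03 and 0.04 (limma adjusted p = 0.740 and 0.605).

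The size of the count depended on the window. Within 2 kb of the start, 13 of 47 members tested were called, all shorter, against 14.9% of windows (14.3% shorter). The median log2 difference there was -0.07 for the members and -0.06 for all windows. The 13 were Kcnab1, Kcnd2, Kcnd3, Kcnf1, Kcng3, Kcnh5, Kcnh7, Kcnip4, Kcnj2, Kcnk10, Kcnk2, Kcnk4 and Kcnmb4. Kcnn3 covered 4722 ± 181 bp in Control and 3968 ± 54.9 bp in cKO libraries within 5 kb (log2 difference -0.24, limma adjusted p = 0.00276), but 2784 ± 21.6 and 2920 ± 46.9 bp within 2 kb (SD, n = 4 each), a log2 difference of 0.07 (limma adjusted p = 0.108). Kcns1 changed sign in the same way, from -0.53 to 0.07. The covered length also went with the calls. Of windows with a mean covered length of at least 3000 bp, a limit chosen after the values were seen, 63.6% of 3608 were shorter, as were 28 of 31 members, and of windows under 3000 bp 16.9% of 12540 and 5 of 18 members.

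**Figure D4:**
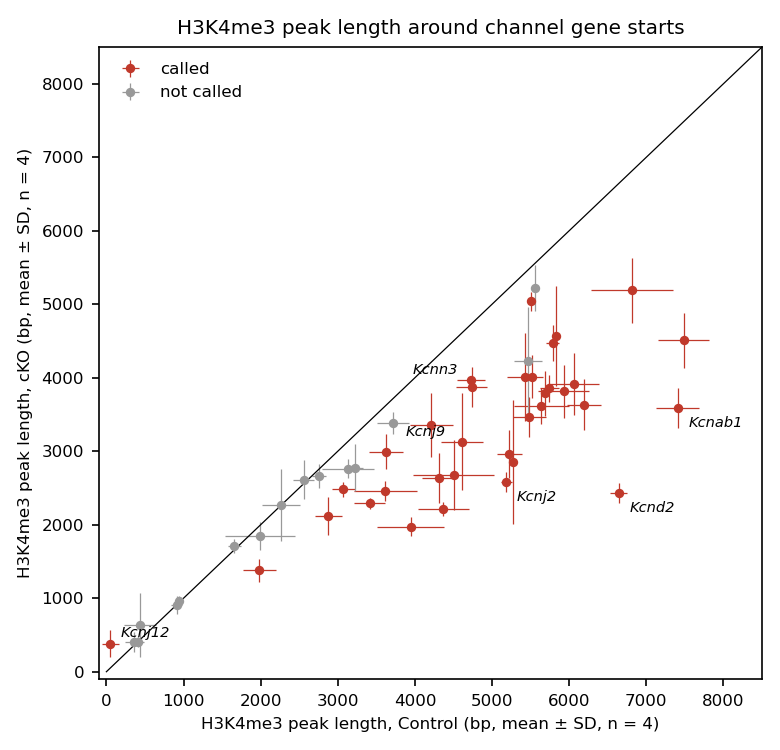
Base pairs covered by H3K4me3 peaks within 5 kb of the start, libraries labelled Control (horizontal) and cKO (vertical), mean ± SD of 4 libraries each, for the 49 potassium channel genes tested. Points below the line of equality are shorter in cKO, Kcnd2 lies farthest below it on the log2 scale, and red marks limma calls.

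For the other marks in the same windows the members were compared by whether every library labelled cKO lay below every Control library. For H3K4me3 this held in 35 of 49 members, against 30.5% of all windows, and the reverse order in 1, against 1.46%. For H3K9ac it held in 23 of 50 members, against 15.6% of all windows, and the reverse order in 1, against 4.04%. For H3K27ac it held in 9 of 46, against 11.7%, and the reverse order in 2, against 3.19%. For H3K4me1 it held in 2 of 52, against 11.8%, and the reverse order, every cKO library longer, in 6 of 52, against 5.17%. At Kcnd2 the H3K9ac peaks covered 3757, 3676, 4144 and 3735 bp in Control and 2413, 2211 and 2482 bp in cKO libraries. At Kcnab1 the H3K27ac peaks covered 6222, 6949 and 7966 bp in Control and 8869, 9318, 9091 and 9205 bp in cKO libraries, so they were longer in cKO where those of H3K4me3 were shorter.

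RNA and H3K4me3 were both tested for 48 members in neurons. Of the 33 with a shorter H3K4me3 window, 1 (Kcnn3) was called lower in neuron RNA, against 2% of all genes tested there. In whole CA RNA 4 of the 33 were called, against 4.17% of all genes, with Kcnn3, Kcnab1 and Kcnh5 lower and Kcnj9 higher. The share called in RNA among all genes with a shorter window was not counted. The median log2 fold change in neuron RNA was -0.06 for the 33 genes with a shorter window and -0.09 for the 15 others. Across the 48 genes, which are not independent replicates and share the same libraries, the H3K4me3 difference and the neuron RNA log2 fold change had Pearson's r of -0.17 and Spearman's rho of -0.10. At Kcnj9 the covered length was 4556, 4828, 4251 and 4818 bp in Control and 2175, 3211, 3649 and 3477 bp in cKO libraries (log2 difference -0.57 ± 0.15 SE, limma adjusted p = 0.0272), a call lost within 2 kb, with a replicate block and without Control replicate 1, 2 or 4. Kcnv1, Kcnq3 and Kcns2 were called in RNA but have no start in the promoter table used here.

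**Figure D5:**
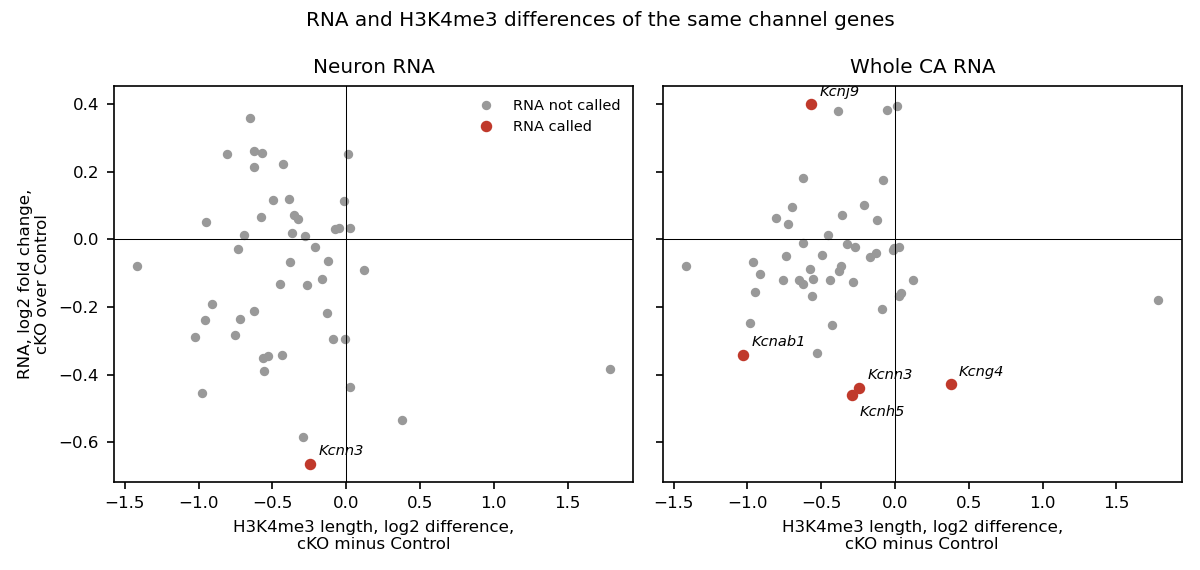
RNA log2 fold change (libraries labelled cKO over Control) against the log2 difference in H3K4me3 covered length for the same potassium channel genes, in neuron RNA (48 genes) and whole CA RNA (49 genes). Red points are called in RNA, and the gene farthest to the left, Kcnd2, lies near 0 in RNA at -0.08 in both panels.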

How the data were processed

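RNA values are whole-number read counts per Ensembl gene ID as deposited by the authors, and the peak lists deposited by the authors give each peak's length with its −log10 q-value. Builds mm10 and GRCm38 and the tools SAMtools and MACS2 are named in the submitters' processing notes. The aligner, the counting tool and its strand setting are not given in the sources used here. H3K4me3 peaks were called per library with MACS 2.1.1.20160309 at a q-value cutoff of 0.1, per the file headers. Depth was 55.7 to 69.1 M counts per neuron library and 14.9 to 20.1 M per whole CA library. Symbols came from a supplied table that matched 99.3% and 98.9% of the IDs.

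Counts were tested with edgeR 4.0.16 (R 4.3.3) by its quasi-likelihood test with TMM factors and filterByExpr, separately in each material, with Benjamini-Hochberg adjustment over all genes tested and a call at an adjusted p under 0.05. The interaction used all 18 RNA libraries. H3K4me3 covered length was tested with limma 3.58.1 on log2(bp + 100) over all windows with a peak in at least 3 libraries. Fold changes are libraries labelled cKO over Control. Both fits were tested on simulated data. Replicates of a group were compared and no library was a repeat of another.

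Genes are named if they were called in a genotype or interaction fit, had an unadjusted p under 0.05 in a genotype fit, led their family in Control neuron RNA, were among the 5 highest or 5 lowest by material, or were called partners. A few members are counted but not reported by name here. Channel genes named for H3K4me3 were picked once their values were known. The members, lists and tests were chosen with earlier results of these data known. Alternatives for RNA were DESeq2 1.42.0, RLE factors or bare library sizes, testing every gene with a count or only those averaging 10 counts or more, a threshold of 0.1, a minimum absolute log2 fold change of 0.5, lane terms and subsets, a mean CPM of at least 5 for members, replicate blocks and leaving out each library. For H3K4me3 they were a window of 2 kb, an offset of 1000 bp and a −log10 q of at least 5. The most upstream start, and neuron tests on genes also tested in whole CA RNA, were added after seeing the data.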

Additional observations from a re-analysis of the deposited data

Results flagged for a closer look

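Groups of 4 or 6 libraries were examined for called channel genes, Setd1b and the called partner genes. The H3K4me3 windows examined were called ones with the smallest p, those of genes called in RNA and that of Kcnj12. Of these 50 groups, 1 held a library far from the others, where chance gives about 1 in 20. That rate does not hold for the flagged group, since any value beside 3 equal ones is flagged. The H3K4me3 peaks around the start of Kcnj12, an inward rectifier gene, covered 211 bp in Control replicate 3 and 0 bp in the other Control libraries, against 646, 212, 356 and 313 bp in the libraries labelled cKO. Kcnj12 was the only member whose window was called longer, by a log2 difference of 1.78 ± 0.43 (SE, limma adjusted p = 0.0178), and these covered lengths are near the smallest peaks. With 3 Control libraries at 0 bp the size of this value rests on the offset of 100 bp, and it was 0.39 with an offset of 1000 bp. Within 2 kb of the start of Kcnj12 the covered length was 0 bp in every library, so these peaks lay farther out. For its RNA the log2 fold change was -0.38 in neurons and -0.18 in the whole CA region.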

How the results depend on the processing

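The count of 1 channel gene called in neuron RNA became 2 with no filter or at an adjusted p under 0.1, 6 with DESeq2 and 1 to 3 when a library was left out, with 3 without Control replicate 1 and 2 without Control replicate 3. The 8 calls in whole CA RNA became 2 with replicates 1 to 3 only, 5 with replicates 4 to 6 only, 1 with a minimum absolute log2 fold change of 0.5, and 5 to 8 when a library was left out, with 5 without Control replicate 3 or 5. The 2 partner genes called in neuron RNA became 1 with that minimum and 1 to 2 when a library was left out. The 34 H3K4me3 calls became 13 with the 2 kb window and 29 to 34 when a library was left out. Log2 differences of H3K4me3 that changed sign were 0.058 for Kcnab1 and 1.35 for Kcnk2 at the most upstream start, and 0.067 for Kcnn3 and 0.073 for Kcns1 in the 2 kb window. With a replicate block the counts were 1 in neuron RNA, 10 in whole CA RNA, 0 for the interaction and 29 for H3K4me3, and 1 partner gene in neuron RNA. Over all genes DESeq2 took the calls in neuron RNA from 539 to 840. The 640 calls over all genes in whole CA RNA became 207 with replicates 1 to 3 only and 224 with replicates 4 to 6 only. The block took the calls over all genes from 539 to 327 in neuron RNA and from 640 to 839 in whole CA RNA. The numbers were not taken as pairs, although same-numbered whole CA libraries also share a sequencing lane, since not every correlation of their deviations was above 0.1. The deviations correlated at -0.06, 0.29 and 0.00 in neuron RNA, at -0.06 to 0.20 in whole CA RNA and at -0.10 to 0.01 for H3K4me3. In neither RNA set did every library correlate best with its own number. The interaction count was 0 in every alternative run, and the material count stayed between 47 and 61. The causes of these changes were not tested, apart from fewer libraries or a stricter rule where that is the alternative. Members under about 1 CPM are limited by depth, and a peak length gives no read count.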

Other observations

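The genes whose level went most closely with that of Kcnn3 over the 18 RNA libraries, after the mean of each material was taken out, were Serpina3n (Pearson's r = 0.956), Gm34583 (0.952) and Thsd4 (0.948), out of 17523 genes compared. These values are a description over libraries that include both genotypes.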
